A study of Mus musculus with 8 samples.

Results

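Insr, Igf1r, Irs2, Pik3ca, Pik3cd, Pik3r1, Akt1, Akt2, Foxo1 and Foxo3 encode the core of insulin, IGF1 and FOXO signalling. They were taken by gene symbol, not by their values, though with earlier results of these data known. They are 10 of the 16119 genes counted in DC-restricted progenitors (CDPs) of mice on 2 diets. Insulin and IGF1 bind related receptor tyrosine kinases, which phosphorylate insulin receptor substrates and so recruit phosphoinositide 3-kinase (PI3K) to the membrane. The lipid that PI3K makes brings AKT kinases to the membrane, and active AKT phosphorylates FOXO transcription factors and keeps them out of the nucleus. In blood progenitors FOXO factors are known for holding cells in quiescence and for resistance to oxidative stress, and PI3K signalling also runs downstream of cytokine receptors such as Flt3 and Kit.

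CDPs were sorted from bone marrow of C57BL/6 mice (C57BL/6J background in the methods) as Lin-, c-kit int, Sca1 lo, CD115+ and Flt3+ cells, about 50000 cells a sample, and their RNA was amplified and sequenced. Mice of the high fat diet group (HFD, labelled as genotype DIO) received 60 kcal% fat, and chow-fed controls (CF, labelled DIO-Control) received 10 kcal% fat. The labels give 16 weeks on the diet for HFD and call CF a matched control by age and diet, with no number of weeks. The methods of the study describe male mice of both diets bought at 16 weeks of age, while its results describe feeding for up to 16 weeks. The labels name no engineered allele or drug in either group. There were 4 libraries per diet, and the labels do not say whether a library came from 1 animal or from pooled animals, so that the spread between libraries may be partly technical. In such bulk samples, fewer cells of a type and less RNA per cell cannot be told apart.

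The libraries held between 28203651 and 48409689 counts. The genes of the sort gate were found in every library. Kit had 34.2 to 53.6 CPM (each gene's share of a library's counts, scaled up to a fixed total and by TMM, edgeR's normalization for library composition), Csf1r, the gene of CD115, had 79.4 to 133, and Ly6a, the gene of Sca1, had 1.37 to 3.25. Flt3 had 88.8 CPM in HFD replicate 1 and 227 to 378 in the other libraries. That library stood apart in other markers too. The summed CPM of 15 neutrophil markers was 19925 in HFD replicate 1, between 942 and 3487 in the other HFD libraries and between 1927 and 6469 in CF, and each of the 15 was highest in that library, S100a9 and S100a8 being the most abundant per kb. Of 12 erythroid markers, 12 were highest there (summed 804 CPM, against 108 to 191 elsewhere), and the sum of 12 B cell markers was 1334 CPM against 355 to 728. Of these 12, 5 were highest there, among them Ighm and Igkc. The 10 markers other than Ighm and Igkc summed to 133 CPM in HFD replicate 1, 178 in HFD replicate 3 and 83.6 to 127 in the rest. The summed plasmacytoid DC markers were 360 CPM in HFD replicate 1, 622 to 825 in the other HFD libraries and 460 to 523 in CF. Monocyte markers summed to 2279 CPM in HFD replicate 1 and 379 to 1267 elsewhere. T and NK cell markers summed to 20.6 to 38.3 CPM, and adipocyte markers to 17.3 to 26.1 CPM. The diet differences of the 10 genes are therefore given with and without HFD replicate 1. The part of these markers in the results was not tested, beyond the fit with the neutrophil level given at the end of the account of that level. Non-coding genes of up to 200 nt took 8.50% to 13.6% of the counts in HFD and 21.7% to 33.9% in CF, and rRNA genes 42.3% to 44.3% in HFD and 33.9% to 40.5% in CF.

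No diet difference was found for any of the 10 genes. All 10 were expressed, with 382 to 5434 counts in a library, and all 10 were tested. In the comparison of HFD with CF by edgeR's quasi-likelihood test, 8 had a positive log2 fold change, against 59.7% of all genes and 64.6% of protein-coding genes, and 2 a negative one (Pik3cd and Akt2, which were positive when libraries were scaled by total count alone), while each of the 10 values was smaller in size than its standard error. At an adjusted p below 0.05, 0 of 10 were called, where 0.423% of all genes tested were called, and DESeq2 and limma voom also called 0 of 10. At an unadjusted p below 0.05 there were 0 of 10, against 8.56% of all genes (3.22% higher and 5.34% lower in HFD) and 5.38% of protein-coding genes. The libraries of the diets overlapped for all 10, whereas 6.16% of all genes had diets that did not overlap (2.58% higher and 3.58% lower in HFD). The median log2 fold change was 0.10 for the 10 genes, 0.055 for the 15837 genes tested and 0.070 for the 11775 protein-coding genes tested. When HFD replicate 1 was left out, 4 of the 10 values were positive and 6 negative with a median of -0.017, against 0.029 for all genes, and 0 of 10 had diets that did not overlap, where 13% of all genes did not. By the ratio of the highest to the lowest library, Igf1r, Irs2 and Insr varied most, with Foxo1 close to Insr.

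**Figure D1:**
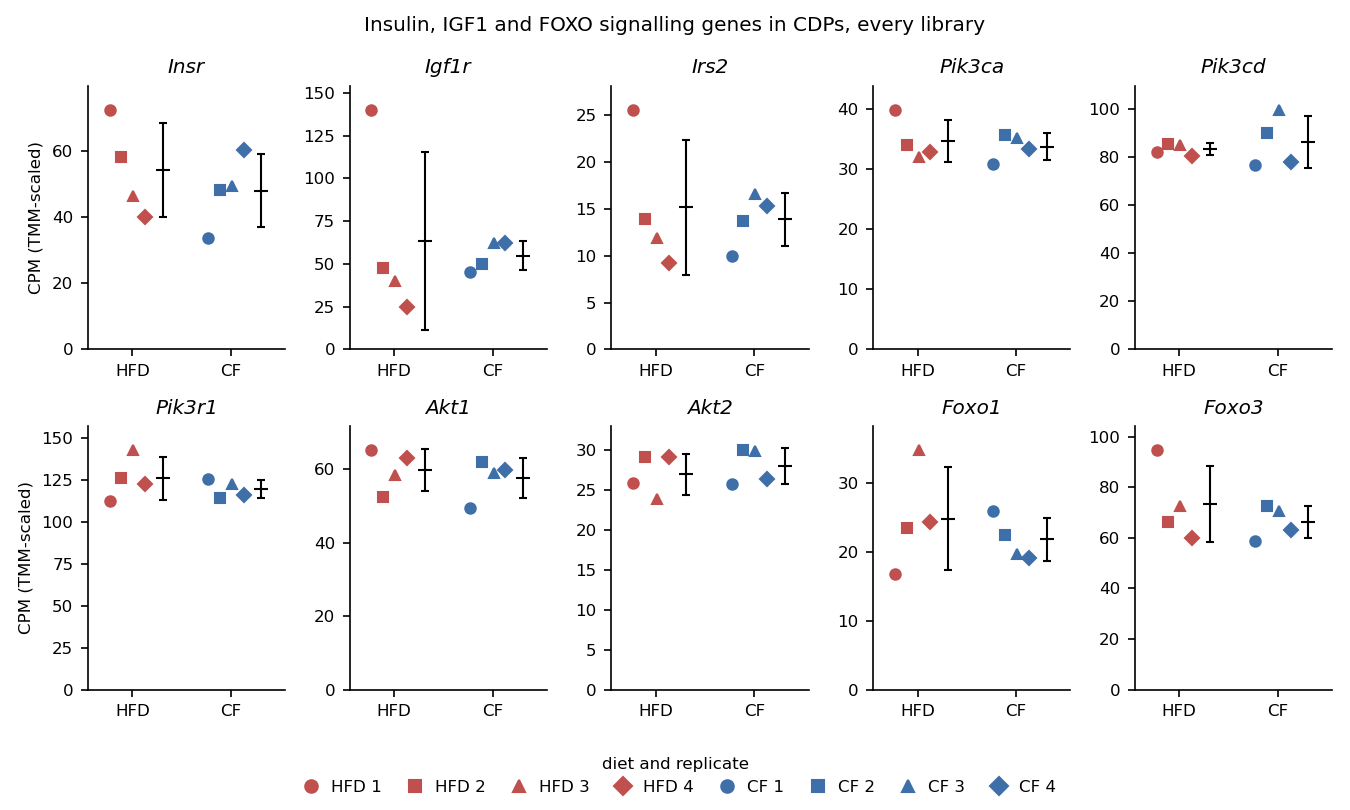
CPM (TMM-scaled, linear axis from 0) of each of the 10 genes in the 4 HFD libraries (red) and the 4 CF libraries (blue), with marker shapes for the replicates and the mean ± SD of each diet in black. HFD replicate 1 is at 140.0 CPM for Igf1r, more than any other library, and Pik3cd spans only 80.5 to 85.5 CPM in HFD.

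Igf1r, the receptor of IGF1, lies on chr7:67952827-68233668 (GRCm38, plus strand). It had 140.0, 47.9, 40.2 and 24.8 CPM in HFD replicates 1 to 4 and 45.2, 50.03, 62.0 and 62.0 CPM in CF. The highest of the 8 was HFD replicate 1 and the lowest HFD replicate 4, with all CF libraries between them. The means were 63.2 ± 52.1 CPM in HFD and 54.8 ± 8.52 CPM in CF (SD, n = 4 each), and the log2 fold change was 0.20 (SE 0.48, edgeR adjusted p = 0.96). Without HFD replicate 1 the direction turned, to -0.54 (SE 0.22, unadjusted p = 0.036, adjusted p = 0.30), and the remaining HFD libraries overlapped with CF through HFD replicate 2. In that fit, 14.6% of all genes had an unadjusted p below 0.05 and 1.26% an adjusted one.

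Insr, the insulin receptor, lies on chr8:3122061-3279617 (minus strand). Its levels were 72.5, 58.2, 46.5 and 40.2 CPM in HFD and 33.8, 48.3, 49.6 and 60.5 CPM in CF. Again HFD replicate 1 was the highest, but CF replicate 1 was the lowest. The means were 54.3 ± 14.2 and 48.1 ± 11.0 CPM, with a log2 fold change of 0.18 (SE 0.22, edgeR adjusted p = 0.92) that became 0.0062 without HFD replicate 1 (adjusted p = 0.99).

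Irs2, the adaptor that both receptors phosphorylate, lies on chr8:10984681-11008458 (minus strand). It was the least abundant of the genes, with 25.6, 13.9, 11.9 and 9.27 CPM in HFD and 10.0, 13.7, 16.6 and 15.3 CPM in CF. The order of the HFD libraries was the same as for Igf1r and Insr. The log2 fold change was 0.13 (SE 0.31, edgeR adjusted p = 0.97) with all libraries and -0.25 without HFD replicate 1 (SE 0.20, adjusted p = 0.61). Of its exon bases, 2.56% are shared with an antisense gene, 9530052E02Rik, and whether the counting used strand is not stated in the sources used here.

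Igf1r and Irs2 are shown here with Foxo1 because the levels of the first 2 rose, and that of Foxo1 fell, with a neutrophil marker level of the libraries described further on, and Akt1 because it holds the only FOXO motif found among the genes. RefSeq (GRCm38.p6) listed 16 start sites for 9 of the 10 genes, Insr having no entry in the table. The lines give up to 250 bases before a start, 5′ to 3′ on the gene's strand, as far as they lie outside the GENCODE gene. The windows are chr7:67952007-67952256 (plus) for Igf1r, chr8:11008930-11009179 (minus) for Irs2, chr3:52268087-52268335 (plus) for Foxo1 and chr12:112674885-112675134 (minus) for Akt1. Capitals mark the GC box GGGCGG, or CCGCCC where it is on the other strand, and in Akt1 the FOXO motif GTAAACA, read there from the other strand as TGTTTAC.
Igf1r: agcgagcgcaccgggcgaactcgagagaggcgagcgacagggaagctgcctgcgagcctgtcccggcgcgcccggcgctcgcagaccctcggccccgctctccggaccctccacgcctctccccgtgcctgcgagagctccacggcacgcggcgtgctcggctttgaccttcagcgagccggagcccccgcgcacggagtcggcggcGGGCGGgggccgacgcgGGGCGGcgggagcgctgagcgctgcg
Irs2: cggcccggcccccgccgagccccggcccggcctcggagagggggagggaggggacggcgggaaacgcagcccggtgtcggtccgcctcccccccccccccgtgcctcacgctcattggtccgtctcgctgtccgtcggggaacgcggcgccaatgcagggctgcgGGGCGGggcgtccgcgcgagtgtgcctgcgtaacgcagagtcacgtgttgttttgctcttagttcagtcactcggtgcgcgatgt
Foxo1: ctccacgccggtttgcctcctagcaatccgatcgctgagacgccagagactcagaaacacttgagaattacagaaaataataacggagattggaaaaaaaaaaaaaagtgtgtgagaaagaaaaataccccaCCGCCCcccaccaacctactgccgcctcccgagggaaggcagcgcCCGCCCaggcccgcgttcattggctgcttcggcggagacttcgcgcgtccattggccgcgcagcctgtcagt
Akt1: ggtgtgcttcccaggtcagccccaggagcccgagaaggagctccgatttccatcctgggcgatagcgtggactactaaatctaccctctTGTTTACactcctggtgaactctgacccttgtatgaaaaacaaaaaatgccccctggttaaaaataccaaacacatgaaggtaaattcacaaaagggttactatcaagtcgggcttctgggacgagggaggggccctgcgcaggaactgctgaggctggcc

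Positions of a motif's first base are counted from the start site, with -1 as the base before it. Igf1r has GC boxes at -43 and -26, Irs2 at -85 and Foxo1 at -118 and -73. A GC box was in 10 of the 16 windows (62.5%) and in at least 1 window of each of the 9 genes, against 32.7% of the 32851 windows of all genes in the table. In the other lists of the pathway described at the end, the share of windows with a GC box was 28.6% for ligands and binding proteins, 50% for kinases from PDK1 to mTOR, 61.5% for the other PI3K genes, 66.7% each for the other receptors and adaptors and for phosphatases, 70% for FOXO partners and 79.4% for FOXO targets. The FOXO motif was in 1 of the 16, at -161 of Akt1, against 3.17% of all windows. Both motifs were searched on both strands, and their letters do not overlap. The GC box was chosen after the windows were seen. These matches are a description of the letters only.

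The PI3K and AKT genes varied less than the receptors, by 1.26-fold to 1.32-fold between the lowest and the highest library. Pik3cd, the catalytic subunit p110delta of leukocytes (chr4:149649168-149702571, minus strand), had 82.4, 85.5, 85.1 and 80.5 CPM in HFD and 76.8, 90.2, 99.6 and 78.1 CPM in CF. All HFD libraries lay inside the CF range, and its SD of log2 CPM in HFD was at percentile 0.603 of the protein-coding genes, and in CF at 43.5. The log2 fold change was -0.048 (SE 0.11, edgeR adjusted p = 0.96). Pik3ca, the ubiquitous catalytic subunit p110alpha (chr3:32397671-32468486, plus strand), ranged from 32.0 to 39.8 CPM in HFD and from 30.8 to 35.6 CPM in CF. Its mean was 34.6 ± 3.51 CPM in HFD and 33.7 ± 2.19 CPM in CF (log2 fold change 0.041, SE 0.10). Pik3r1, which encodes the regulatory subunit p85alpha that binds the phosphorylated adaptors (chr13:101680563-101768217, minus strand), had 112 to 143 CPM in HFD and 114 to 125 CPM in CF. Its lowest library was HFD replicate 1 and its highest HFD replicate 3, with a log2 fold change of 0.076 (SE 0.10). Without HFD replicate 1 these values were -0.041 for Pik3cd, -0.032 for Pik3ca and 0.13 for Pik3r1.

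Both AKT genes differed by little between the diets. Akt1 (chr12:112653821-112674884, minus strand) had 65.2, 52.3, 58.5 and 63.0 CPM in HFD and 49.5, 61.9, 59.0 and 59.8 CPM in CF, a log2 fold change of 0.055 (SE 0.11, edgeR adjusted p = 0.95). Akt2 (chr7:27591552-27640826, plus strand), the isoform best known for insulin-driven glucose uptake, ranged from 23.9 to 29.1 CPM in HFD and from 25.8 to 30.0 CPM in CF, a log2 fold change of -0.053 (SE 0.11). Without HFD replicate 1 they were 0.011 and -0.033. Slc2a4, the glucose transporter that AKT2 brings to the surface of fat and muscle cells, was at 0 to 1.73 CPM.

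Foxo1 and Foxo3, the FOXO factors that AKT restrains, went different ways in HFD replicate 1. Foxo1 (chr3:52268336-52353221, plus strand) had 16.8, 23.5, 34.8 and 24.3 CPM in HFD and 25.9, 22.5, 19.6 and 19.2 CPM in CF. HFD replicate 1 was its lowest library and HFD replicate 3 its highest. The log2 fold change was 0.19 (SE 0.21, edgeR adjusted p = 0.90). It became 0.34 without HFD replicate 1 (adjusted p = 0.41) and -0.018 without HFD replicate 3. An antisense gene on the opposite strand, Gm20402, shares 7.78% of its exon bases. Foxo3 (chr10:42181841-42276755, minus strand) had 94.7, 66.0, 72.4 and 60.1 CPM in HFD and 58.9, 72.7, 70.6 and 63.0 CPM in CF. Its highest library was HFD replicate 1, and the other 7 lay within 58.9 to 72.7 CPM. The log2 fold change was 0.15 with all libraries (SE 0.15, adjusted p = 0.88) and -0.0015 without HFD replicate 1.

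**Figure D2:**
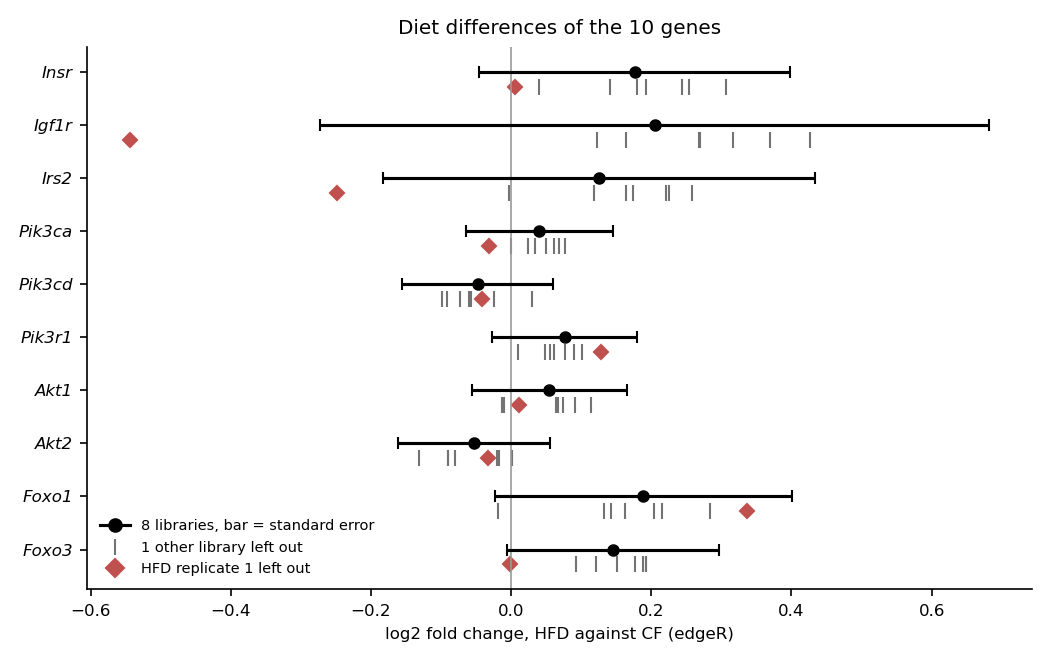
Log2 fold change of HFD against CF by edgeR for each gene, with all 8 libraries (black, bar = standard error), without HFD replicate 1 (red diamonds) and without each other library in turn (ticks). Each bar of 1 standard error holds 0, and Igf1r moves from 0.20 to -0.54 without HFD replicate 1.

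HFD replicate 1 was the highest of the 8 libraries for Insr, Igf1r, Irs2, Pik3ca, Akt1 and Foxo3 and the lowest for Pik3r1 and Foxo1. Of all genes tested, 26.5% were highest and 21.2% lowest in that library, and of protein-coding genes 29.9% and 20.9%. From the lowest to the highest library, the level differed 5.64-fold for Igf1r, 2.76-fold for Irs2, 2.14-fold for Insr, 2.07-fold for Foxo1 and 1.61-fold for Foxo3. The SD of log2 CPM of Igf1r in HFD was at percentile 92.4 of the protein-coding genes, and that of Irs2 at 81.2. In CF the corresponding percentiles were 56.1 and 70.7. The counting error of the lowest count, 382 for Irs2, was 5.12%, that of the highest, 5434 for Pik3r1, was 1.36%, and these cover counting error only, not amplification.

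Levels per kb of exon (CPM per kb, mean ± SD over the 8 libraries) put the genes in an order of 2 steps. Akt1 was highest with 14.3 ± 1.30, followed by Pik3cd with 13.5 ± 1.18, Pik3r1 with 12.1 ± 0.96 and Foxo3 with 9.22 ± 1.505. Akt2 with 3.85 ± 0.32, Pik3ca with 3.76 ± 0.30, Insr with 3.73 ± 0.89, Igf1r with 3.51 ± 2.07, Foxo1 with 2.69 ± 0.64 and Irs2 with 2.30 ± 0.81 formed the lower step. Foxo3 was above Akt2 in 8 of 8 libraries. No other gene was above its next neighbour in all 8 libraries (5 to 7 of 8), and those neighbours were not told apart by their order.

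The shares of related genes in their family are given per kb. Of the summed level per kb of the 4 class I PI3K catalytic genes, Pik3cd held 41.0% ± 4.77 in HFD and 42.1% ± 2.40 in CF, Pik3cg 35.8% ± 1.23 and 35.2% ± 1.93, Pik3ca 11.6% ± 0.55 and 11.4% ± 0.35, and Pik3cb 11.5% ± 4.72 and 11.2% ± 0.67 (SD, n = 4 per diet). HFD replicate 1 had the lowest Pik3cd share, 33.9%, and the highest Pik3cb share, 18.5%. Without it, Pik3cd held 42.8% to 44.1% in HFD and 39.8% to 45.1% in CF, Pik3ca 11.2% to 12.4% and 11.0% to 11.7%, and Pik3cb 8.35% to 10.1% and 10.3% to 11.9%, the last without overlap. Of the summed level of the receptors, Insr held 55.9% ± 11.9 in HFD and 51.4% ± 3.35 in CF. Its share was 38.8% in HFD replicate 1 and 58.6% to 66.4% in the other HFD libraries, which lay above the 47.7% to 54.4% of CF. Among Foxo1, Foxo3 and Foxo4, Foxo3 held 62.6% ± 5.32 in HFD and 64.9% ± 2.89 in CF, and Foxo1 18.9% ± 5.74 and 18.8% ± 3.13. In the other HFD libraries than replicate 1, Foxo3 held 57.7% to 61.6%, against 60.7% to 66.9% in CF, and Foxo1 held 19.1% to 24.2% against 16.3% to 23.3%. The share of Foxo4 was 17.7% to 19.3% in HFD and 15.9% to 16.8% in CF. The Foxo4 shares did not overlap, while the Foxo4 CPM did. The shares were compared after the values were seen and were not tested as shares.

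Within a library, the ratio of 2 counts does not depend on the scaling, and that of Insr to Igf1r holds the same values as the receptor shares. Akt1 was 3.68 times as abundant per kb as Akt2 (median of 8 libraries), Pik3ca 0.275 times as abundant as Pik3cd, and Foxo1 0.290 times as abundant as Foxo3. The log2 ratio of Insr to Igf1r was -0.66, 0.57, 0.50 and 0.98 in HFD and -0.13, 0.24, -0.03 and 0.25 in CF. HFD replicate 1 was the lowest of the 8, and the other HFD libraries were the 3 highest. The diet means differed by 0.27 (p = 0.49 by an exact permutation test, two-sided, and 0.65 when adjusted for the 4 ratios). Without HFD replicate 1 it was 0.60 (exact p = 0.029, the smallest the test allows there, adjusted p = 0.11). In the libraries left, the summed neutrophil markers were 942 to 3487 CPM in HFD and 1927 to 6469 CPM in CF. Leaving out each library in turn gave differences of 0.054 to 0.60. The log2 ratio of Foxo1 to Foxo3 was -2.69, -1.69, -1.25 and -1.503 in HFD and -1.38, -1.89, -2.04 and -1.91 in CF. The diets overlapped, with a difference of 0.022 (exact p = 0.97) that became 0.32 without HFD replicate 1 (exact p = 0.17). The ratios of Akt1 to Akt2 and of Pik3ca to Pik3cd differed by 0.11 and 0.077 between the diets (exact p = 0.40 and 0.49, both 0.65 adjusted), and by 0.047 and 0.0035 without HFD replicate 1 (exact p = 0.71 and 0.97).

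**Figure D3:**
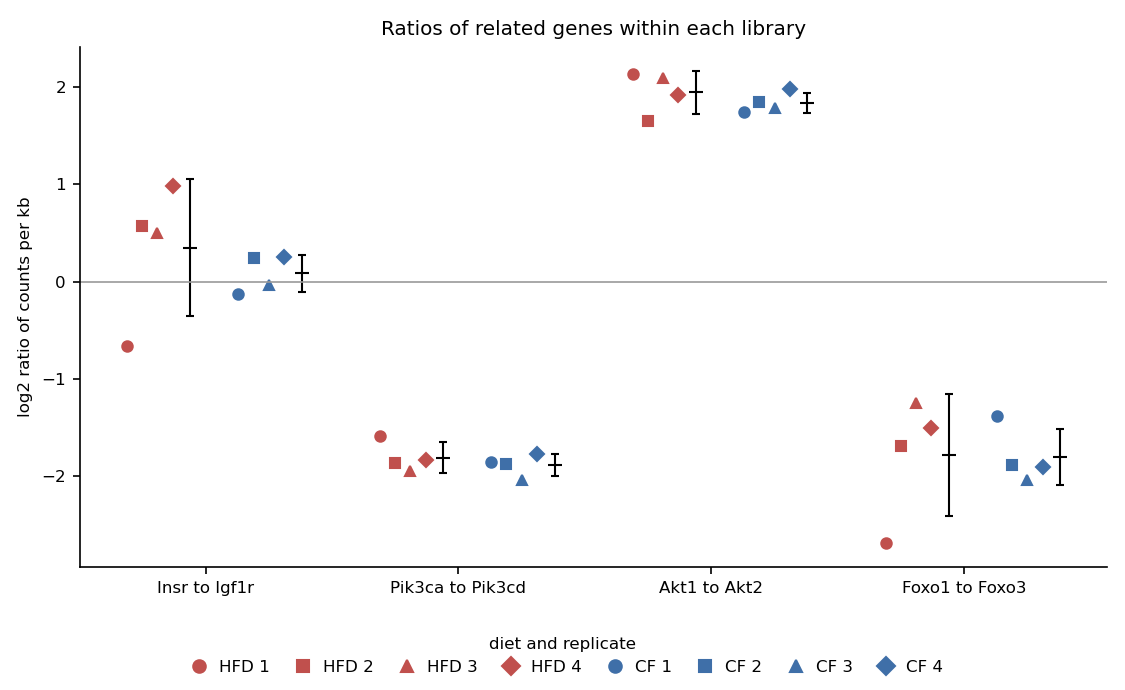
Log2 ratio of counts per kb for 4 pairs of related genes in every library, HFD in red and CF in blue, with mean ± SD of each diet in black. For Insr to Igf1r, HFD replicate 1 lies at -0.66 and the other HFD libraries at 0.50 to 0.98, above the highest CF library at 0.25.

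The level of several of these genes followed the neutrophil level of a library. The relation was sought after the values were seen, so that its p-values partly restate what was noticed. It was computed between the log2 CPM of a gene and the log2 of the summed neutrophil marker CPM over all 8 libraries of both diets, since 4 per diet are too few for a value within a diet. Other markers moved with that level. Flt3 had 88.8 CPM in HFD replicate 1, where it was highest, and 303 to 378 CPM in HFD replicates 3 and 4 and CF replicate 1, where it was lowest. The erythroid and monocyte sums were also highest in HFD replicate 1. Whether the genes followed neutrophils or another part of the cell mix was not tested. For Igf1r, Pearson's r was 0.93 (exact permutation p = 0.00012, adjusted p = 0.0012 over 10 relations) and Spearman's rho was 0.93 (exact p = 0.0022, adjusted p = 0.022). Without HFD replicates 1 and 4, the libraries farthest from the median neutrophil level, r was 0.86, and it was 0.88 without HFD replicate 1 alone. For Irs2, r was 0.93 (exact p = 0.0012, adjusted p = 0.0061), rho 0.83 (exact p = 0.015, adjusted p = 0.038), r without those 2 libraries 0.80 and without HFD replicate 1 alone 0.88. For Pik3ca, r was 0.86 (exact p = 0.0066, adjusted p = 0.022), rho 0.88 (exact p = 0.0072, adjusted p = 0.036), r without the 2 libraries 0.82 and without HFD replicate 1 alone 0.72. An r of 0.7 or more in size was reached by 7 of the 10 genes and by 28.2% of 11775 protein-coding genes. One at least as large in size as that of Igf1r was reached by 4.71% of them, as that of Irs2 by 4.41%, as that of Pik3ca by 10.6% and as that of Foxo1 by 13.5%.

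Foxo1 and Pik3r1 ran the other way. For Foxo1, r was -0.83 (exact p = 0.0096, adjusted p = 0.024), rho -0.83 (exact p = 0.015, adjusted p = 0.038), r without the 2 libraries -0.92 and without HFD replicate 1 alone -0.75. For Pik3r1, r was -0.75 (exact p = 0.030, adjusted p = 0.051), rho -0.81 (exact p = 0.022, adjusted p = 0.044), r without the 2 libraries -0.89 and without HFD replicate 1 alone -0.66. Insr had an r of 0.78 (exact p = 0.024, adjusted p = 0.048) and a rho of 0.71 (exact p = 0.058, adjusted p = 0.096), and r fell to 0.54 without the 2 libraries and to 0.62 without HFD replicate 1 alone. For Foxo3, r was 0.73 (exact p = 0.035, adjusted p = 0.051) and rho was 0.69 (exact p = 0.069, adjusted p = 0.099). Its r was 0.15 without the 2 libraries and 0.40 without HFD replicate 1 alone, so that its relation rested on those libraries. Akt1, Pik3cd and Akt2 had an r of 0.37 (exact p = 0.37, adjusted p = 0.46), 0.26 (exact p = 0.53, adjusted p = 0.59) and 0.13 (exact p = 0.75, adjusted p = 0.75), with a rho of 0.40, 0.40 and 0.33 (exact p = 0.33, 0.33 and 0.43, adjusted p = 0.36, 0.36 and 0.43). Without the 2 libraries their r was 0.51, 0.42 and 0.81, and without HFD replicate 1 alone 0.072, 0.47 and 0.45.

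**Figure D4:**
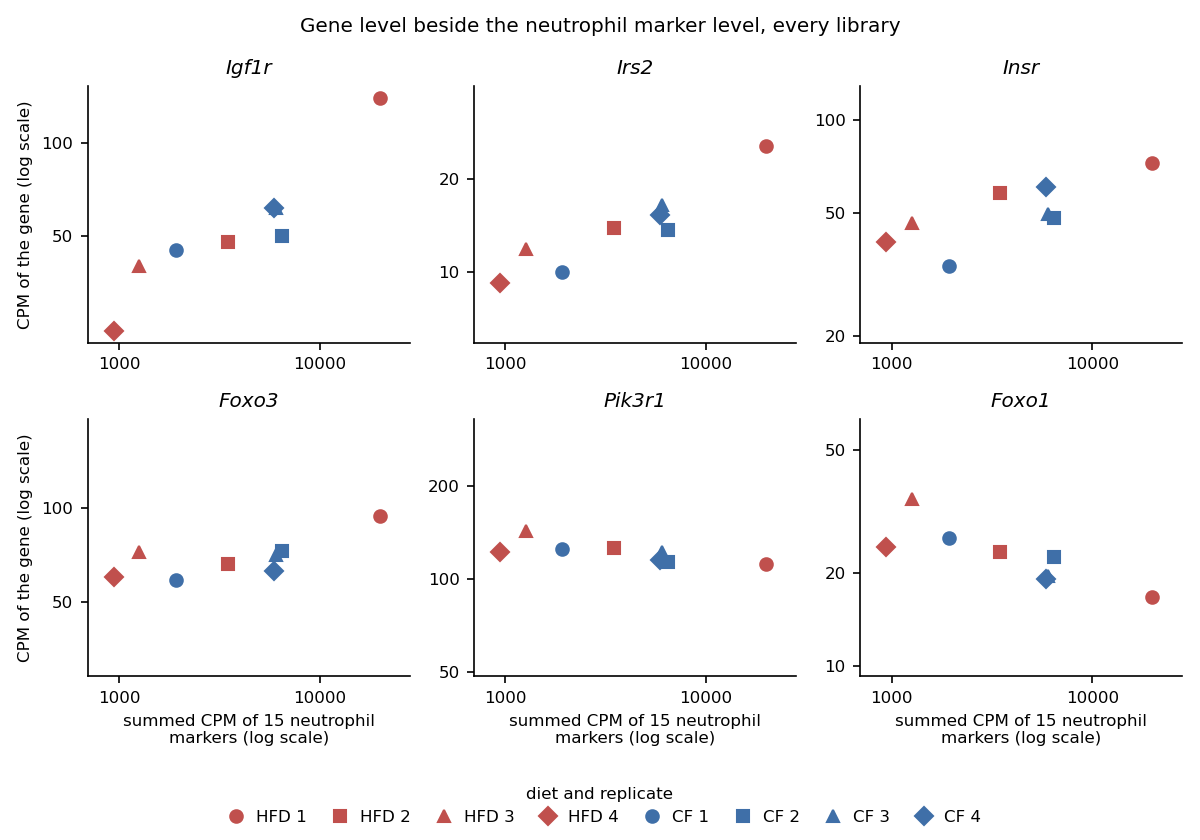
CPM of 6 of the genes (log axis) against the summed CPM of 15 neutrophil markers (log axis) in every library, HFD in red and CF in blue, with marker shapes for the replicates. Igf1r and Irs2 rise with the neutrophil level over both diets, with r of 0.93 each, and Foxo1 falls with it, with r of -0.83.

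With the neutrophil level as a covariate in edgeR, a fit added after the values were seen, 0 of the 10 genes were called, against 4.09% of all genes. The log2 fold change between the diets was then 0.19 for Igf1r (SE 0.17, adjusted p = 0.69), 0.23 for Irs2 (SE 0.12, adjusted p = 0.44), 0.21 for Foxo3 (SE 0.10, adjusted p = 0.42) and 0.050 for Foxo1 (SE 0.14, adjusted p = 0.92). Insr reached an unadjusted p of 0.042 (log2 fold change 0.29, SE 0.12, adjusted p = 0.34), where 13.7% of all genes had an unadjusted p below 0.05.

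The genes nearest in profile were found by the root mean square (RMS) difference of centred log2 CPM over the 8 libraries, among protein-coding genes. Nearest to Igf1r were Abcc5 (RMS difference 0.14), Pip5k1b (0.15) and Ccdc125 (0.15). Abcc5 had 53.9 CPM in HFD replicate 1 and 7.26 in HFD replicate 4, the same 2 extremes as Igf1r. Nearest to Insr were Fuk (0.093), Trim12a (0.11) and Cables2 (0.11). Among the 10 genes themselves, Pik3ca and Akt1 were the nearest pair (0.099) and Igf1r and Foxo1 the farthest (0.90).

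The other genes of the pathway were taken from 7 lists by role, written from general knowledge. Of their 126 genes, 105 had counts and 104 were tested. By edgeR, 66 had a positive and 38 a negative log2 fold change, with a median of 0.060, and 0 were called. DESeq2 called 1 and limma voom 0. At an unadjusted p below 0.05 there were 5, which is 4.81% of those tested against 8.56% of all genes. The diets did not overlap for 1, which is 0.962% against 6.16% of all genes.

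Of the ligands and binding proteins, 3 of 11 had counts and 2 were tested (2 positive, 0 called). Igfbp4 and Igfbp5 encode proteins that bind IGFs. Igfbp4 was the most abundant per kb, with 41.7 to 112 CPM over the libraries and a log2 fold change of 0.13 (SE 0.30). Igfbp5 was at 0.34 to 2.44 CPM (log2 fold change 0.57, SE 0.59), and Igf1 itself at 0 to 2.18 CPM, too low for the test. Of the other receptors and adaptors, 11 of 16 were tested (8 positive, 3 negative, 0 called, median 0.18). Gab2, a docking adaptor of PI3K, had the lowest p of that list (log2 fold change -0.23, SE 0.14, adjusted p = 0.77). Grb2 (18.7 ± 5.32 CPM per kb) and the ubiquitin ligase gene Cbl (16.6 ± 3.11) were the most abundant of the list.

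Among the 12 other PI3K genes (8 positive, 4 negative, median 0.047), Pik3ap1 came closest to a call. It encodes BCAP, an adaptor that recruits PI3K in B cells and myeloid cells. It had 39.7, 42.8, 39.0 and 43.1 CPM in HFD and 28.9, 30.3, 32.5 and 30.6 CPM in CF, and the diets did not overlap. The log2 fold change was 0.43 (SE 0.087, unadjusted p = 0.00087, adjusted p = 0.088), and it was 0.44 without HFD replicate 1 (adjusted p = 0.061). Of 12 B cell markers 11 had a positive log2 fold change, 6 at an unadjusted p below 0.05 and 2 without overlap, and of 9 plasmacytoid DC markers 9, 5 and 2. Over all genes, 59.7% were positive, 3.22% were higher in HFD at that p and 2.58% were higher without overlap. Other marker lists were also mostly positive. Of 12 erythroid markers 12 were positive, 1 at that p, of 15 neutrophil markers 13 and 0, and of 10 monocyte markers 6 and 0. Each of these other lists had 0 without overlap. None of the markers was called, and their part in the Pik3ap1 values was not tested. DESeq2 called Pik3ap1 (adjusted p = 0.00059), as did the fit with the neutrophil level (adjusted p = 0.027), and the adjusted p reached 0.69 over the settings tried. Pik3c2a, a class II PI3K gene, had a log2 fold change of -0.18 (SE 0.16), and 12.3% of its exon bases are shared with a gene on the opposite strand. Pik3cg, the catalytic subunit p110gamma downstream of chemokine receptors, was the most abundant of this list with 11.6 ± 1.15 CPM per kb (log2 fold change 0.041, SE 0.12).

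Of the phosphatases and negative regulators, 13 of 14 were tested (10 positive, 3 negative, 0 called, median 0.16). Inpp4a, which removes a phosphate from a PI3K lipid product, had 75.9, 113, 46.1 and 70.2 CPM in HFD and 44.2 to 56.7 CPM in CF (log2 fold change 0.55, SE 0.24, unadjusted p = 0.049, adjusted p = 0.58). With 1 library left out at a time, its log2 fold change was 0.30 to 0.73. Phlpp2, an AKT phosphatase gene, had a log2 fold change of 0.20 (SE 0.12). Inpp5d, the gene of SHIP1, had 19.0 ± 1.80 CPM per kb, the highest of this list.

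Of the kinases and effectors from PDK1 to mTOR, 23 of 24 were tested (13 positive, 10 negative, 0 called, median 0.023). Deptor, an mTOR inhibitor, had 5.95 to 8.97 CPM in HFD and 8.06 to 10.2 CPM in CF (log2 fold change -0.36, SE 0.16, unadjusted p = 0.053), and 3.41% of its exon bases are shared with a gene on the opposite strand. Sgk1, a kinase related to AKT, had 16.4, 7.27, 4.64 and 4.71 CPM in HFD and 12.2, 15.5, 14.9 and 10.5 CPM in CF. HFD replicate 1 was its highest library and the other HFD libraries were its lowest. Its log2 fold change was -0.69 (SE 0.40, adjusted p = 0.75) and, without HFD replicate 1, -1.26 (SE 0.22), where it was called (adjusted p = 0.034). That fit called 1.26% of all genes. In those 7 libraries the summed neutrophil markers were 942 to 3487 CPM in HFD and 1927 to 6469 CPM in CF. With the neutrophil level as a covariate over all 8 libraries, Sgk1 had -0.67 (SE 0.18, adjusted p = 0.081) and was not called. Rps6, a ribosomal protein phosphorylated downstream of mTOR, had 189 ± 34.5 CPM per kb, and Gsk3a, a kinase that AKT inhibits, 10.9 ± 0.86. A gene on the opposite strand shares 28.3% of the exon bases of Gsk3a.

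Of the other FOXO factors and partners, 12 of 13 were tested (10 positive, 2 negative, 0 called, median 0.089). Foxo4 had 11.8, 9.50, 10.5 and 8.03 CPM in HFD and 7.16, 8.43, 8.16 and 6.94 CPM in CF (log2 fold change 0.38, SE 0.15, unadjusted p = 0.035, adjusted p = 0.50). Stk4, a kinase that phosphorylates FOXO factors under oxidative stress, had a log2 fold change of 0.14 (SE 0.10). Ywhae (74.4 ± 11.1 CPM per kb) and Ywhaz (62.1 ± 5.59), the genes of 14-3-3 proteins that hold phosphorylated FOXO in the cytoplasm, were the most abundant of the list.

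Of the FOXO target genes, 31 of 36 were tested (15 positive, 16 negative, 0 called, median -0.016). The list also holds genes that FOXO factors repress, such as Ccnd1, so that its signs and median do not measure FOXO activity. Bcl2l11, the gene of the pro-apoptotic protein BIM, had 10.2, 9.60, 13.2 and 9.25 CPM in HFD and 14.4, 18.2, 11.4 and 17.1 CPM in CF (log2 fold change -0.53, SE 0.18, unadjusted p = 0.017, adjusted p = 0.35). Ccnd1, the gene of cyclin D1, which FOXO factors repress, had 39.8, 84.9, 60.6 and 125 CPM in HFD and 39.7 to 51.9 CPM in CF (0.73, SE 0.31, unadjusted p = 0.044, adjusted p = 0.55). Without HFD replicate 1, whose level was within the CF range, Ccnd1 had 0.94 (adjusted p = 0.088), and leaving out each library in turn gave 0.36 to 0.94. Of its exon bases, 23.4% are shared with a gene on the opposite strand. Txnip, the gene of an inhibitor of glucose uptake, was among the most abundant of the list (22.6 ± 5.50 CPM per kb), with a log2 fold change of -0.26 (SE 0.22). A gene on the opposite strand shares 19.4% of its exon bases. In the fit without HFD replicate 1, 1.26% of all genes were called. Among the FOXO targets these were the transcription factor gene Klf2 (-0.95, SE 0.12, adjusted p = 0.018) and the stress response gene Gadd45a (-1.69, SE 0.25, adjusted p = 0.022). They are named after their values were seen, and 19.1% of the exon bases of Gadd45a are shared with a gene on the opposite strand. With all libraries their log2 fold changes were -0.44 (SE 0.34) and -0.53 (SE 0.63), and HFD replicate 1 was the highest library of both. The fit with the neutrophil level called 0 of the FOXO targets by edgeR, with -0.40 for Klf2 (SE 0.15, unadjusted p = 0.025, adjusted p = 0.25) and -0.64 for Gadd45a (SE 0.19, unadjusted p = 0.0068, adjusted p = 0.11).

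**Figure D5:**
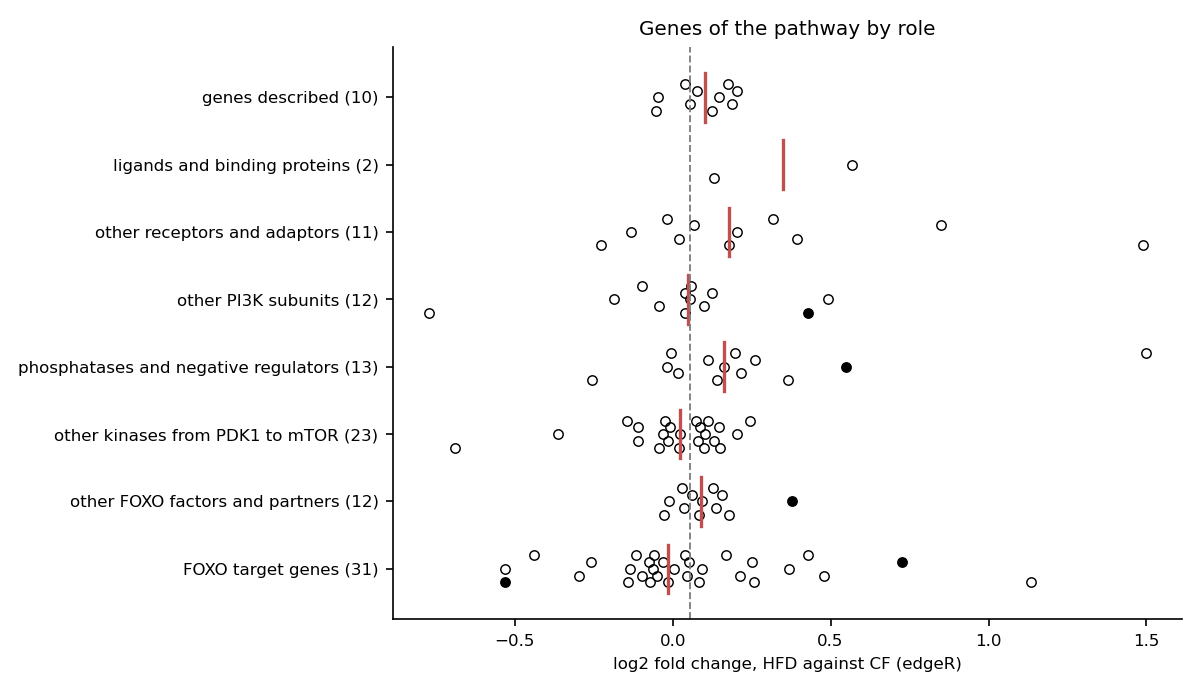
Log2 fold change of HFD against CF by edgeR for every tested gene of the pathway by role, with the number tested in parentheses. Filled points have an unadjusted p below 0.05, red bars are list medians, and the dashed line is the median of all genes tested, 0.055. The 5 filled points are Pik3ap1, Inpp4a, Foxo4, Ccnd1 and Bcl2l11, and none of the 10 genes described is filled.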

How the data were processed

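CDPs of 4 HFD and 4 CF samples were analysed from the authors' deposited table of raw counts per gene, made per the labels and the methods of the study with cutadapt, HISAT2 and StringTie on GRCm38, after checks with FastQC. The annotation release and strand setting are not given in the sources used here. The columns were matched to the samples by the sample number in their names. Totals were 28203651 to 48409689 counts. GENCODE vM21 held the Ensembl identifiers of 16067 of the 16119 genes and gave names, coordinates, overlaps and exon lengths.

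Genes were kept by filterByExpr (15837), scaled by TMM and compared with the robust quasi-likelihood test of edgeR 4.0.16 (R 4.3.3) with diet as the only term. P values were adjusted by Benjamini-Hochberg over every tested gene, and genes under 0.05 were called. A prior count of 2 entered log2 CPM. Permutation tests were exact and two-sided. Same-diet libraries differed by more than sampling noise in every pair. The tests were tried on simulated data. The genes, lists, rule for naming and tests were chosen with earlier results of these data known. Named were the 10 genes, of each list the 2 lowest p, any called gene and the 2 highest per kb, the sort markers, and the 3 nearest profiles of Insr and Igf1r. Klf2, Gadd45a and other genes outside this rule were picked once their values had been seen. Some genes that the rule names are not reported here.

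Other settings tried were DESeq2 1.42.0, voom of limma 3.58.1, scaling by RLE or by library size alone, a linear model on log2(CPM + 1), no filter, 1 CPM in 4 libraries, protein-coding genes alone, the replicate number as a block, each library left out and, added after seeing the data, the neutrophil level as covariate. Promoter sequences came from RefSeq on GRCm38.p6. Plots were made in matplotlib 3.10.9 under Python 3.11.15.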

Additional observations from a re-analysis of the deposited data

Results flagged for a closer look

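Of 60 groups of 4 libraries looked at, the 10 genes and the named pathway genes in each diet, 2 held a library set apart from its group by more than Dixon's 95% limit, where chance gives about 1 in 20. Igfbp5 was at 0.59 log2 CPM in CF replicate 3, against -0.74 to -0.56 in the other CF libraries. Pik3c2a was at 4.75 log2 CPM in CF replicate 2, against 5.31 to 5.43 in the others.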

How the results depend on the processing

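Over 18 alternatives, 0 of 180 values of the 10 genes were called (lowest adjusted p 0.30), 2 had an unadjusted p below 0.05 and 17 changed sign, and Insr and Pik3r1 kept their sign throughout. The Igf1r log2 fold change was -0.10 with voom, -0.089 with the linear model and -0.12 with the replicate block. Pik3ca was -0.00079 among protein-coding genes alone. With library size alone, which moved the median of all genes from 0.055 to 0.25, Pik3cd was 0.15, Akt2 0.14 and Pik3c2a 0.00068. Leaving out 1 library at a time gave -0.54 to 0.43 for Igf1r, -0.25 to 0.26 for Irs2, -0.032 to 0.077 for Pik3ca, -0.099 to 0.030 for Pik3cd, -0.013 to 0.11 for Akt1, -0.13 to 0.0015 for Akt2, -0.018 to 0.34 for Foxo1, -0.0015 to 0.19 for Foxo3, -0.032 to 1.00 for Igfbp5 and -0.093 to 0.29 for Igfbp4. The same gave 0.0062 to 0.31 for Insr, 0.010 to 0.13 for Pik3r1, 0.083 to 0.16 for Stk4 and -0.32 to -0.12 for Pik3c2a. The log2 ratio of Insr to Igf1r was -0.029 as a difference of edgeR fold changes. With 1 library left out it ran from 0.054 to 0.60, and that of Foxo1 to Foxo3 from -0.15 to 0.32. The causes were not tested.

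Over all genes, edgeR called 67 lower and 0 higher in HFD (845 and 510 at an unadjusted p below 0.05). DESeq2 called 503 lower and 64 higher, the fit with the neutrophil level 555 and 92, and library size alone 98 and 10 (611 and 1571 unadjusted, so that the balance turned). The linear model, protein-coding genes alone and the replicate block called 0 lower and 0 higher, with 809 and 648, 252 and 285, and 675 and 236 unadjusted, so that protein-coding genes alone had more higher than lower. Samples with the same number did not deviate together (correlations -0.439 to -0.078). The methods of the study describe replicates isolated in parallel. Differences in cell mix can hide a shared handling step, so these correlations cannot tell whether same-numbered samples shared one. Leaving out 1 library gave 0 to 166 lower and 0 to 34 higher. The largest counts came without HFD replicate 1 (166 lower, 34 higher) and without CF replicate 4 (154 lower), and each other library left 0 or 1 lower. Among the pathway lists, 1 other PI3K gene, Pik3ap1, was called by DESeq2 and by the fit with the neutrophil level. Without HFD replicate 1, 1.26% of all genes were called, among them 1 kinase gene (Sgk1) and 2 FOXO target genes (Klf2 and Gadd45a). Leaving out 1 library thus gave 0 to 1 and 0 to 2 called genes in these lists.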
